A study of Mus musculus with 4 samples.

Results

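Open chromatin was examined at 40 genes of the extracellular matrix, fibroblasts and mural cells (the pericytes and smooth muscle cells that wrap vessels), out of 21887 protein-coding genes, in hearts of newborn (P0) mice. The 40 genes were taken as a fixed list: fibrillar, basement membrane and other collagens, laminins and further matrix proteins, matrix proteases and their inhibitors, and fibroblast, pericyte and smooth muscle genes. A peak was assigned to a gene when its summit lay inside the gene or within 10 kb of either boundary, a stretch called the gene window here. The assay, ATAC-seq, sequences fragments that a transposase cuts from accessible DNA.

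The series holds 4 libraries, 2 of wild-type (WT) hearts and 2 labelled miR-187, and the comparison asks how raised miR-187 affects chromatin openness in the heart. The miR-187 mice carry a mouse miR-187 fragment knocked into the Rosa26 locus on a C57BL/6J background, under a promoter and enhancer of Tek (Tie2), a gene of endothelial cells. WT mice have no insertion, and all libraries share the tissue and the stage. The labels name only heart as the tissue, while the study describes capturing CD31-positive endothelial cells from such hearts and gives the mice compared by ATAC-seq as homozygous (KI/KI) and +/+. The number of hearts in a library is not given in the sources used here. The 2 libraries of a group are therefore not shown to be separate animals, and any spread between them may be technical.

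Endothelial cells rest on a basement membrane of type IV collagen, laminin, nidogen and perlecan, which they make together with pericytes. Fibroblasts make the fibrillar collagens, fibronectin, periostin and small proteoglycans of the interstitium, and smooth muscle cells are known by their contractile proteins. An open promoter or enhancer in a bulk library can come from many cells or from few, and fewer cells of a type cannot be told apart from less open chromatin per cell. The list therefore looks both at matrix genes that endothelial cells use and at genes of neighbouring cell types.

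The libraries differed in depth, which the lists allow to be inferred from the background read density behind each peak. This density ran from 1032 reads per Mb in miR-187 replicate 2 to 5227 reads per Mb in WT replicate 2, a ratio of 5.06. WT replicate 1 (1751 reads per Mb) and miR-187 replicate 1 (2016 reads per Mb) were the closest pair across the groups. Values in fours below always run WT replicate 1, WT replicate 2, then miR-187 replicate 1, miR-187 replicate 2, called library order. The lists held 9452, 12298, 7496 and 1483 peaks in library order. With 2 libraries a group, the 2-sided exact permutation test over 6 assignments cannot give a p below 0.33, so no difference between groups could pass 0.05. Every gene whose groups do not overlap has this p of 0.33 by construction, and it is not repeated. A gene without a peak in the shallow list of miR-187 replicate 2 may be open below its detection limit.

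Fewer of the 40 genes had a peak in the miR-187 libraries than in the WT libraries. In WT replicate 1, 19 of the 40 genes had at least 1 peak, or 47.5%, beside 38% of all protein-coding genes. In WT replicate 2, 25 had a peak, or 62.5%, beside 47.1% of all genes. In miR-187 replicate 1 the number was 15, or 37.5%, beside 33.5%, and in miR-187 replicate 2 it was 4, or 10%, beside 6.75%. The groups did not overlap, at 22 ± 4.24 genes for WT against 9.5 ± 7.78 for miR-187 (SD, n = 2 each), and the gap between the miR-187 libraries was wider than that between the WT libraries. The order of the groups depended on list length and threshold, since with lists cut to the 1483 strongest peaks each library had 4 genes, and at a −log10 q of 5 or more they overlapped (5, 16, 7 and 0 genes in library order). Without miR-187 replicate 2 the difference in means went from -12.5 to -7 genes. The share of all genes with a peak had the same order of libraries. The 40 genes are long, with a median of 42.5 kb against 17.2 kb for all genes, and a longer gene has more room for a peak.

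**Figure D1:**
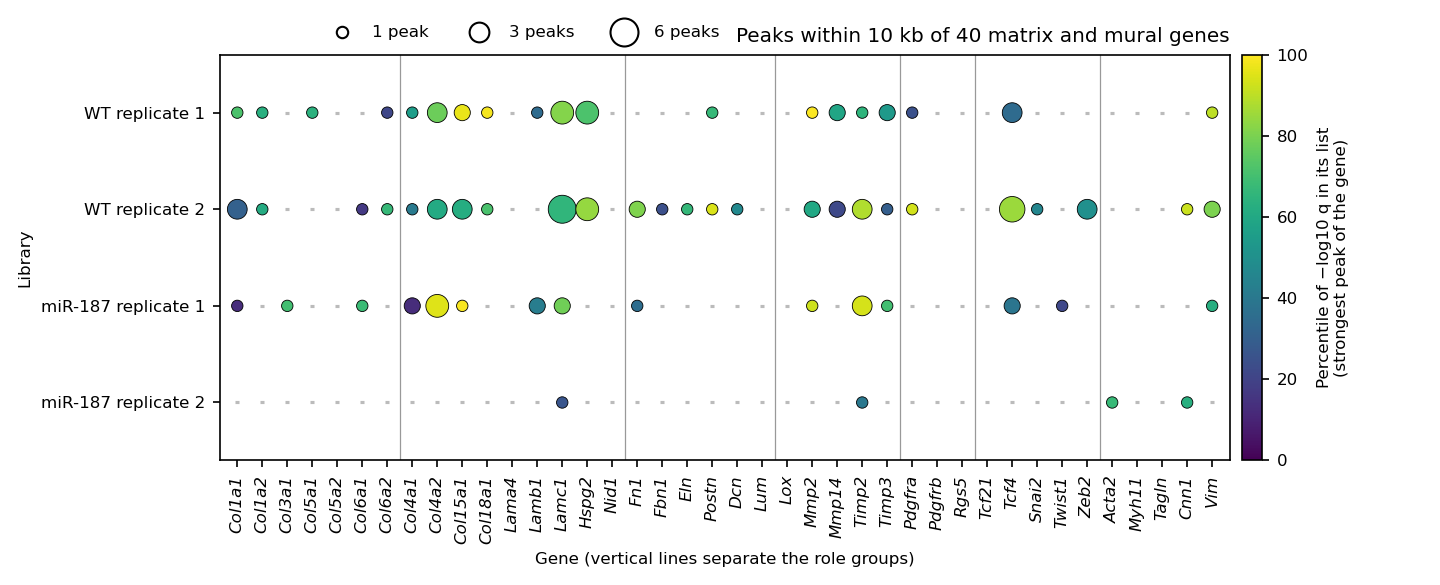
Each column is 1 of the 40 genes and each row 1 library. The area of a circle shows the number of peaks in the gene window, its colour the percentile of −log10 q of the strongest of them among all peaks of that list, and a dash no peak. Lamc1 and Timp2 have a circle in every row, Hspg2 has 4 peaks in each WT library and none in either miR-187 library, and miR-187 replicate 2 has circles at 4 genes.

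Per length of sequence, the windows of the 40 genes still held more peaks than gene windows in general. This gap was not tested, and in miR-187 replicate 2 it rests on 4 peaks. Over 3.47 Mb the windows of the 40 genes held 32, 51, 24 and 4 peaks in library order. This is a density of 9.22 peaks per Mb in WT replicate 1 against 5.97 for all gene windows, 14.7 against 8.10 in WT replicate 2, 6.91 against 4.93 in miR-187 replicate 1 and 1.15 against 0.87 in miR-187 replicate 2. As a share of the whole list, these peaks made up 0.339%, 0.415%, 0.320% and 0.270% in library order, with 95% Wilson intervals of 0.240 to 0.478, 0.316 to 0.545, 0.215 to 0.476 and 0.105 to 0.691. These intervals, which cover counting error only, overlap for every pair of libraries, so the large difference in the number of peaks was not resolved as a difference in share. When reads were thinned in calculation to the depth of the shallowest library, the peaks still expected in these windows were 19.3, 7.48, 13.5 and 4 in the same order. The 2 WT libraries then lay on either side of miR-187 replicate 1.

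Density differed among the genes by role. Members that endothelial cells are also known to express (12 genes, among them the basement membrane genes, Vim, Zeb2 and Tcf4) had a peak at 9, 9, 7 and 1 genes. The remaining 28 genes, which were left outside this set though endothelial cells may express some of them too, had one at 10, 16, 8 and 3 genes. These are 75%, 75%, 58.3% and 8.33% of the first set and 35.7%, 57.1%, 28.6% and 10.7% of the second, beside the 38%, 47.1%, 33.5% and 6.75% of all genes, so the second set lay near the share of all genes and below it in 2 libraries. In peaks per Mb, the endothelial-shared genes had 11.9, 16.7, 8.35 and 0.60, and the others 6.69, 12.8, 5.58 and 1.67. The first set was thus denser in the 3 deeper libraries and the order was turned in miR-187 replicate 2, where it rests on 1 and 3 peaks. A further list of 40 matrix and mural genes outside the first, such as Sparc, Vcan, Fbln2 and Nid2, had a peak at 15, 23, 11 and 6 genes and 4.89, 7.97, 3.34 and 1.80 peaks per Mb. Sparc and Nid2 were the 2 of these with a peak in every library (5%, beside 3.36% of all genes), and 6 (15%, beside 41.5%) had none in any.

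**Figure D2:**
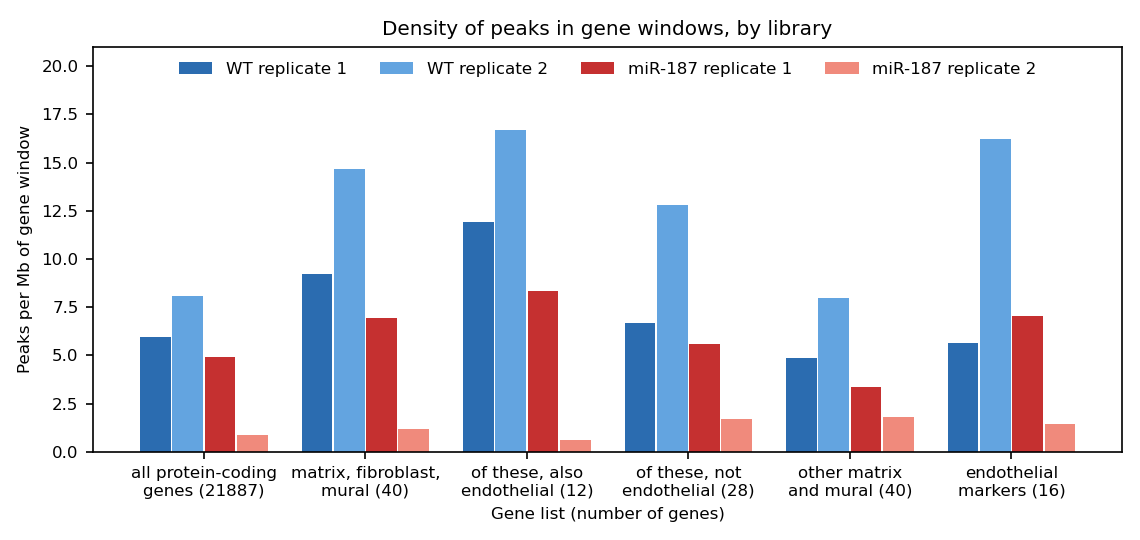
Bars give peaks per Mb of gene window in each library (4 bars a list) for 6 gene lists, with the number of genes in brackets. The bars labelled as not endothelial are the 28 genes left outside the endothelial-shared set, some of which endothelial cells may express too. The 40 genes lie above all protein-coding genes in every library (9.22 against 5.97 in WT replicate 1, and 1.15 against 0.87, from 4 peaks, in miR-187 replicate 2). The other list of 40 matrix and mural genes lies below all protein-coding genes in 3 libraries and above them in miR-187 replicate 2.

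Marker lists of the heart's cell types were read beside the share of all genes with a peak, given above as 38%, 47.1%, 33.5% and 6.75% in library order. Of 16 endothelial markers, 7, 12, 7 and 2 had a peak (43.8%, 75%, 43.8% and 12.5%). Pecam1, which encodes CD31, had one in all but miR-187 replicate 2. Emcn and Cldn5, 2 of the 16, had none in any library, beside 41.5% of all genes. Of 12 cardiomyocyte markers 4, 4, 3 and 0 had a peak (33.3%, 33.3%, 25% and 0%), below the share of all genes in each library. Tnnt2 was among them in both WT libraries and Tnni1 in the 3 deeper ones. Ttn, Actc1, Nppa, Pln, Myh6 and Myh7, 6 of the 12, had no peak in any library, beside 41.5% of all genes. Of 9 fibroblast markers 4, 6, 3 and 0 had one, and of 10 smooth muscle and pericyte markers 2, 3, 0 and 2 (20%, 30%, 0% and 20%), which is below the share of all genes in the 3 deeper libraries. Of 6 immune markers 3, 1, 1 and 0 had a peak, and of 5 erythroid markers 1, 1, 0 and 0. Of these, 8 fibroblast and 6 mural markers are themselves among the 40 genes. Of the 10 mural markers, Myh11, Tagln, Pdgfrb and Rgs5 had no peak in any library (40%, beside 41.5% of all genes), and Acta2, Cnn1, Abcc9, Cspg4, Kcnj8 and Notch3 had one in at least 1. Beside them 7, 8, 5 and 2 of 10 housekeeping genes had a peak. What each cell type contributes to the results was not tested.

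Start sites of these genes had a peak nearby in shares close to those of all genes. The RefSeq promoter table (GRCm38.p6) lists start sites for 25 of the 40 genes. A summit lay within 1 kb of a listed start site at 6 of them in WT replicate 1 (24%, beside 22.4% of 17492 genes), at 7 in WT replicate 2 (28% beside 32.2%), at 5 in miR-187 replicate 1 (20% beside 21%) and at none in miR-187 replicate 2 (0 of 25, beside 3.23%). WT replicate 1 had such peaks at Col1a2, Col6a2, Hspg2, Postn, Mmp14 and Vim. WT replicate 2 had them at the same genes except Mmp14, and also at Fbn1 and Timp2. miR-187 replicate 1 had them at Col3a1, Timp2, Timp3, Twist1 and Vim. Vim, which encodes the mesenchymal intermediate filament vimentin that endothelial cells also make, was the 1 gene in all 3 sets.

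The peaks at the 40 genes were less often at gene boundaries than peaks at genes in general. A summit within 1 kb of a boundary of any protein-coding gene was found for 8 of 32, 17 of 51, 6 of 24 and 1 of 4 peaks in library order. These are shares of 25.0%, 33.3%, 25.0% and 25.0%, with 95% Wilson intervals of 13.3 to 42.1, 22.0 to 47.0, 12 to 44.9 and 4.56 to 69.9. Over all gene windows the shares were 52.8%, 57.8%, 59.4% and 51.0%. The intervals lay below these shares in the 3 deeper libraries, and the interval for miR-187 replicate 2 included its share. Windows of long genes hold fewer boundaries of their own gene per Mb, and the part of gene length in these shares was not tested.

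The promoters shown next are those of genes with a summit within 1 kb of their own boundary in at least 2 libraries, shown because peaks recurred near these start sites. A peak overlapped the printed bases themselves in 2 libraries for Col1a2, Col6a2 and Timp2 and in 1 library for Hspg2 and Vim. Each line is 300 bases of RefSeq GRCm38.p6 in the direction of the gene. It holds the 250 bases before the start site and the 50 bases that begin with it. Capitals mark any of 7 short motifs searched on both strands.
Col1a2: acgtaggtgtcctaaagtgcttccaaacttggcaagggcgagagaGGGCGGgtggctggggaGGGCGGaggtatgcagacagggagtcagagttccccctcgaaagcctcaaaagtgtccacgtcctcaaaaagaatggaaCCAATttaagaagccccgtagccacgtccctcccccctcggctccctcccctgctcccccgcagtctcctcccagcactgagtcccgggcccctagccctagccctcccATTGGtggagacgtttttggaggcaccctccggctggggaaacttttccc
Col6a2: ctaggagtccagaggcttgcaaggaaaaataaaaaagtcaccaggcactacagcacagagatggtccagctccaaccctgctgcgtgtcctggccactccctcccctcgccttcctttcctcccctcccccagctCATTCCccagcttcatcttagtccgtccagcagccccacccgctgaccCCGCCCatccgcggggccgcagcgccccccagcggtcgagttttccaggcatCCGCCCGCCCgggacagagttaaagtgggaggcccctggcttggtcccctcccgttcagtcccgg
Hspg2: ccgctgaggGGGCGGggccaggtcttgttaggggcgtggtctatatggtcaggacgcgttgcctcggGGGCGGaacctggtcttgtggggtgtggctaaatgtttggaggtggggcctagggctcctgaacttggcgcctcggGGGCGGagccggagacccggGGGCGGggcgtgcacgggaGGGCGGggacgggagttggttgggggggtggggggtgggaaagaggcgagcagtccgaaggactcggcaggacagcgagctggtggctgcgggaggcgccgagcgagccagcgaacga
Timp2: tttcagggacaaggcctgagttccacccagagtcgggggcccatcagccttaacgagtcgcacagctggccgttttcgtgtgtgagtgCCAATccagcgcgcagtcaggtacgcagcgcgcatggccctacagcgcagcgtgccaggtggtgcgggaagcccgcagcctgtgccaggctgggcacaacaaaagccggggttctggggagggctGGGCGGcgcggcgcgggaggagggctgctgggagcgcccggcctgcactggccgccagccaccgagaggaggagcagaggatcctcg
Vim: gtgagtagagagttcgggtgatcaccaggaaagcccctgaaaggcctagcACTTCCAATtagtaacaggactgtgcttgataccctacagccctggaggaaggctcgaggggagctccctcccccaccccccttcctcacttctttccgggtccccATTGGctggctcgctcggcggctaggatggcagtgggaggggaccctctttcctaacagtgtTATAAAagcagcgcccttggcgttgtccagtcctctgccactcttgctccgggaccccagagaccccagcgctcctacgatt
The Col1a2 line is chr6:4505368-4505667 (+ strand) and the Col6a2 line chr10:76623355-76623654 (− strand), the latter being 1 of 2 start sites listed for Col6a2. The Hspg2 line is chr4:137468553-137468852 (+ strand), the Timp2 line chr11:118355362-118355661 (− strand) and the Vim line chr2:13574061-13574360 (+ strand). Lamc1, Col1a1 and Fn1 also met this rule.

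The motifs were the GC box (GGGCGG), the CCAAT box (CCAAT), the TATA box (TATAAA), AP-1 (TGANTCA), TEAD (GGAATG), ETS (GGAAGT) and the CArG box, which is bound by serum response factor at contractile genes. The Hspg2 promoter held 5 GC boxes, and that of Col1a2 held 2 GC boxes and 2 CCAAT boxes. That of Col6a2 held 3 GC boxes, of which 2 overlap, and a TEAD match, and that of Timp2 held 1 GC box and 1 CCAAT box. The Vim promoter held a TATA box, 2 CCAAT boxes and an ETS match that overlaps one of them. Over the 31 promoters listed for the 25 genes, 58.1% held a GC box, beside 46.2% of all 21238 promoters, and 45.2% a CCAAT box beside 38.2%. For the other motifs the shares were 12.9% beside 12.6% for TATA, 6.45% beside 6.99% for AP-1, 19.4% beside 13.6% for TEAD, 12.9% beside 24.8% for ETS and 0% beside 1.53% for the CArG box. Peaks overlapped 11 of the 31 promoters in at least 1 library, with a median GC content of 60.3% against 58.3% for the other 20. A match describes letters only, and no binding was measured.

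The basement membrane genes carried 16, 18, 11 and 1 of the peaks in library order. Of the 9 genes, 7, 6, 5 and 1 had a peak (77.8%, 66.7%, 55.6% and 11.1%, beside 38%, 47.1%, 33.5% and 6.75% of all genes). Their median length is 114 kb against 17.2 kb for all genes. Lama4 and Nid1, a laminin chain of vessels and a linker of laminin to collagen IV, had none in any library.

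Lamc1 encodes the laminin γ1 chain, which is part of most laminin trimers. It had 4, 6, 2 and 1 peaks in library order, so the groups did not overlap (5 ± 1.41 against 1.5 ± 0.71, SD, n = 2 per group). After thinning to the shallowest library the groups overlapped (2.60, 0.76, 0.95 and 1 expected peaks), and with lists of equal length the 1 peak left was that of miR-187 replicate 2. At its upper boundary, chr1:153332548-153332841 was called in both WT libraries (fold enrichment over background 4.63 and 3.89) and in neither miR-187 library, and chr1:153333064-153333471, which lies about 0.6 kb outside the gene, was called in WT replicate 2 and in miR-187 replicate 2 (3.35 and 4.88). A region within the gene, chr1:153308503-153309083, had peaks in WT replicate 2 and miR-187 replicate 1 (4.81 and 6.37), and WT replicate 1 had a peak directly beside it, chr1:153309091-153309307 (6.58). The 2 miR-187 libraries shared no Lamc1 region.

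Hspg2 encodes perlecan, the heparan sulphate proteoglycan of basement membranes. It had 4 peaks in each WT library and none in either miR-187 library, the widest gap in mean number among the 40 genes. The region upstream of the start site, chr4:137468072-137468612, was called in both WT libraries with folds of 4.91 and 4.26, and its summits lay 256 and 616 bp upstream of the start site. The other 3 peaks of each WT library did not overlap between libraries. Their folds were 3.97 to 5.07 in WT replicate 1 and 3.36 to 5.65 in WT replicate 2, where 1 peak reached a percentile of 84.4.

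Col4a1 and Col4a2 encode the paired chains of type IV collagen, and their start sites lie 21 bp apart. No summit lay closer than 14.7 kb to either start site, although both genes had peaks in the 3 deeper libraries. Col4a2 had 3, 3, 4 and 0 peaks in library order, and Col4a1 had 1, 1, 2 and 0. A Col4a2 region 93 kb downstream of its start site, chr8:11405702-11406074, was called in all 3 deeper libraries, with folds of 6.33, 5.26 and 8.33. Its percentile within each list was 77.6, 60.9 and 95, ranks that are not comparable in size between lists of different length and depth. Col4a1 and Col4a2 each had 1 further intragenic region shared by WT replicate 1 and miR-187 replicate 1, chr8:11297525-11297765 (folds 5.38 and 4.39) and chr8:11327454-11327683 (4.82 and 4.39).

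Col15a1 and Col18a1 encode the basement membrane collagens that release endostatin-type fragments. Col15a1 had 2, 3, 1 and 0 peaks. Its strongest region lay 2.45 kb beyond the 3′ end of the gene, chr4:47315441-47315869, at a percentile of 96.7 in WT replicate 1 (fold 7.46) and 99 in miR-187 replicate 1 (fold 9.17), and had no peak in the other 2 libraries. An intragenic region, chr4:47293870-47294139, was called in both WT libraries (4.50 and 4.07). Col18a1 had 1 peak in each WT library and none in miR-187. Both fell on chr10:77130609-77130928 with summits 20 bp apart, inside the gene, 17.1 and 17.0 kb upstream of the inner of its 2 listed start sites and 35.8 kb from the outer one. The fold was 9.09 in WT replicate 1, at a percentile of 98.7, and 5.63 in WT replicate 2, at 71.3.

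**Figure D3:**
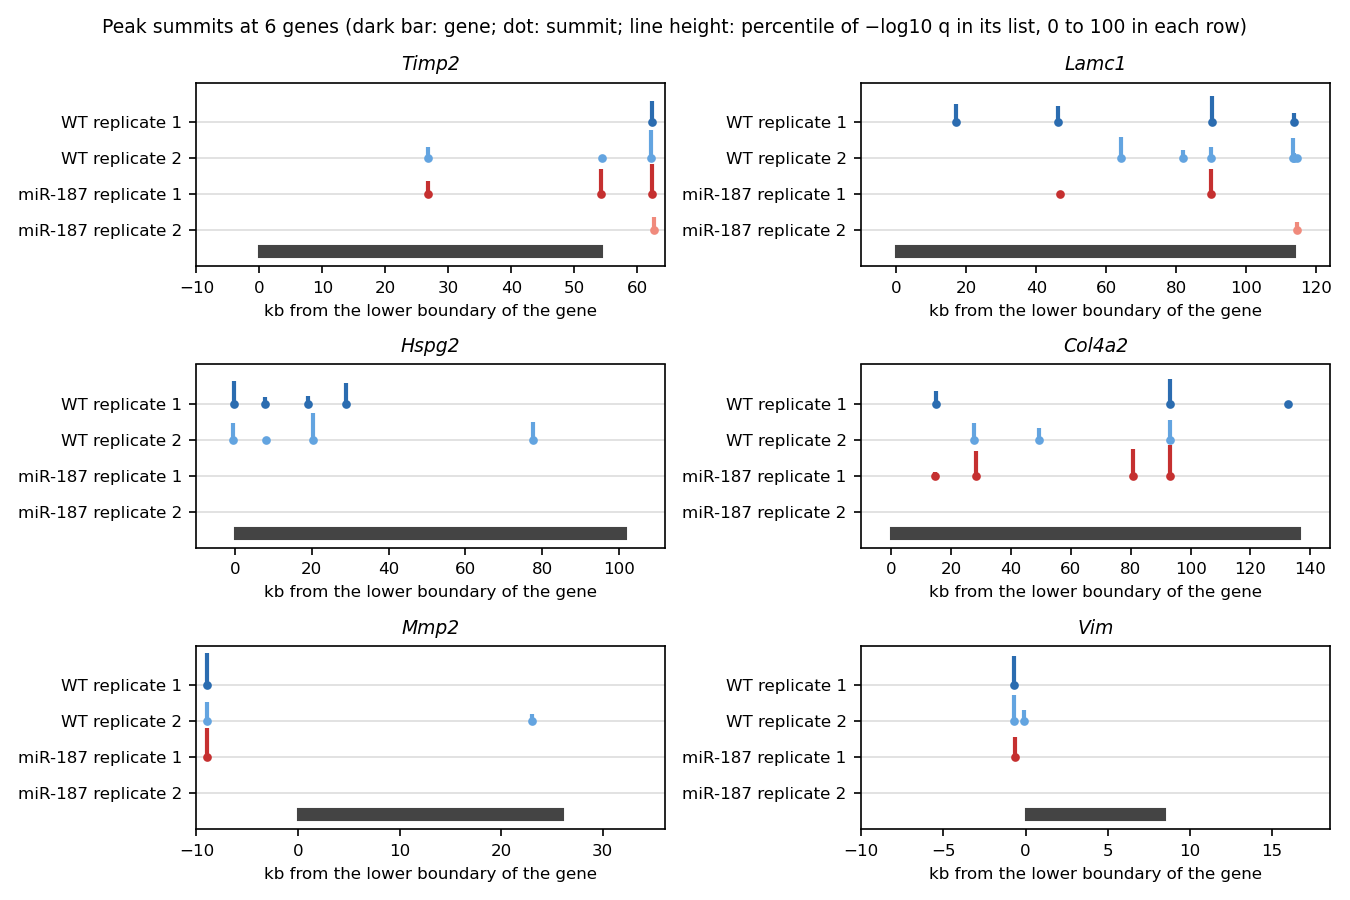
Peak summits at 6 genes, with position in kb from the lower boundary of the gene on the horizontal axis, 1 row a library, and the gene as a dark bar. A dot marks each summit, and the height of the line on it is the percentile of −log10 q of the peak in its list. The Timp2 summits outside the gene, at its 5′ side, stand in all 4 rows, those of Mmp2 and Vim to the left of the gene stand in the 3 deeper libraries, and Hspg2 has lines in the WT rows only.

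The interstitial collagens, which form the fibrils and beaded filaments of connective tissue, had a peak at 4 of 7 genes in each WT library, at 3 in miR-187 replicate 1 and at none in miR-187 replicate 2. These are 57.1%, 57.1%, 42.9% and 0% in library order, beside 38%, 47.1%, 33.5% and 6.75% of all genes. Col1a2, the α2 chain of type I collagen, had 1 peak in each WT library and none in miR-187. These peaks joined in chr6:4505391-4505872, with summits 95 bp upstream and 76 bp downstream of the start site and folds of 5.77 and 5.69 at near-equal percentiles (63 and 61.2). Col6a2, a chain of the microfibrillar type VI collagen, followed the same pattern at chr10:76623249-76623596, with both summits 7 bp from a start site and folds of 4.49 and 5.59. Col1a1, the α1 chain of type I collagen, had 1, 3, 1 and 0 peaks. Its region about 1 kb inside the lower boundary, chr11:94936927-94937336, was called in both WT libraries (5.51 and 4.12), and a region 7.3 kb outside that boundary, chr11:94928655-94929229, in WT replicate 2 and miR-187 replicate 1 (4.24 and 4.42). The paired chains of type I collagen thus both had a region called in WT only, and Col1a1 had another called in 1 library of each group. Col3a1 had its single peak in miR-187 replicate 1, 84 bp downstream of the start site (fold 6.25).

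Among elastic fibre, glycoprotein and proteoglycan genes, 1, 5, 1 and 0 of 6 had a peak in library order. These are 16.7%, 83.3%, 16.7% and 0%, beside 38%, 47.1%, 33.5% and 6.75% of all genes. Only in WT replicate 2, the deepest library and the highest for all genes too, did the group lie above the share of all genes. Postn encodes periostin, a matricellular protein of fibroblasts and valves. It had 1 peak in each WT library and none in miR-187, but at different start sites. In WT replicate 1 the summit lay 36 bp downstream of a start site (fold 5.92, percentile 67.1), and in WT replicate 2 it lay 623 bp upstream of another (chr3:54358484-54358754, fold 7.23, percentile 94.2). Fn1, which encodes fibronectin, had 2 peaks at its upper boundary in WT replicate 2 and 1 in miR-187 replicate 1, the latter overlapping 1 of the former in chr1:71652982-71653416. Fbn1, Eln and Dcn, which encode fibrillin-1, elastin and decorin, had 1 peak each, in WT replicate 2 only.

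Genes of matrix turnover had the densest peaks of the 7 role groups in 3 libraries, with 23.6, 31.5, 19.7 and 3.93 peaks per Mb in library order. The density in miR-187 replicate 2 was below the 8.41 of the contractile genes, from 1 and 2 peaks. All gene windows had 5.97, 8.10, 4.93 and 0.87 peaks per Mb. The matrix turnover group held 6, 8, 5 and 1 peaks at 4, 4, 3 and 1 of 5 genes. These are 80%, 80%, 60% and 20% of genes, beside 38%, 47.1%, 33.5% and 6.75% of all genes. The 10 housekeeping genes had 25.7, 31.4, 20.0 and 5.71 peaks per Mb, so such a density was not particular to matrix turnover. Lox, the collagen crosslinking oxidase, had no peak in any library. Timp2, an inhibitor of metalloproteinases, had the 1 region of the 40 genes called in all 4 libraries. It lay about 8 kb upstream of the start site, chr11:118363068-118363792, with no other protein-coding gene within 10 kb of a summit. Its fold was 4.87, 5.66, 6.79 and 5.10 in library order, from 14, 24, 18 and 9 reads at the summit. Its percentile was 65.1 and 88.2 in the WT lists and 93.5 and 40.2 in the miR-187 lists, and the folds of the groups overlapped. The summits spread over 531 bp, with that of miR-187 replicate 2 farthest upstream. The Timp2 start site itself was called in WT replicate 2 (fold 3.77) and miR-187 replicate 1 (fold 6.44).

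Mmp2, which encodes gelatinase A, and Mmp14, the membrane protease that activates it, differed in pattern. Mmp2 had 1, 2, 1 and 0 peaks. Its region about 9 kb outside the lower boundary, chr8:92818146-92818521, was called in the 3 deeper libraries with folds of 9.22, 5.40 and 7.93 and percentiles of 99.3, 59.8 and 92.2 within their lists. Mmp14 had 2 peaks in each WT library and none in miR-187, all outside the gene and below a −log10 q of 5, so that no library had one inside the gene or at that threshold. One of them lay 33 bp upstream of the start site in WT replicate 1 (fold 5.0), and one in WT replicate 2 lay 4.75 kb upstream and 58 bp from a boundary of the neighbouring gene Mrpl52. Timp3 had 2, 1, 1 and 0 peaks. Its region 4.1 kb upstream of the start site, chr10:86296229-86296435, which is also inside Syn3, was called in both WT libraries (5.32 and 4.21), and its start site in miR-187 replicate 1 (5.69).

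Of the receptor and signalling genes of fibroblasts and pericytes, Pdgfra, the PDGF receptor of fibroblasts, had 1 peak in each WT library and none in miR-187, whereas Pdgfrb, the PDGF receptor of pericytes, and Rgs5 had none in any. The Pdgfra peaks lay at different sites. The one in WT replicate 1 was 3.88 kb upstream of a start site (fold 4.59, percentile 25.0) and the one in WT replicate 2 was 4.1 kb downstream (chr5:75156209-75156515, fold 6.11, percentile 93.3).

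Transcription factors of mesenchymal cells had a peak at 1, 3, 2 and 0 of 5 genes. These are 20%, 60%, 40% and 0% in library order, beside 38%, 47.1%, 33.5% and 6.75% of all genes. The group thus lay on both sides of the share of all genes. Tcf4, an E-protein gene of 345 kb and the longest of the 40, had 3, 5, 2 and 0 peaks in library order, and 1 of its regions was shared, by WT replicate 2 and miR-187 replicate 1. Snai2 and Zeb2, repressors known for their part in epithelial to mesenchymal transition, had 1 and 3 peaks in WT replicate 2 only. Twist1 had 1 peak in miR-187 replicate 1 only, and Tcf21, a factor of epicardial and fibroblast cells, had none.

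Of the 5 contractile and cytoskeletal genes, 1, 2, 1 and 2 had a peak, and the number of peaks was 1, 3, 1 and 2. The shares of genes were 20%, 40%, 20% and 40% in library order, beside 38%, 47.1%, 33.5% and 6.75% of all genes. They lay below the share of all genes in the 3 deeper libraries and above it in miR-187 replicate 2. Vim had 1, 2, 1 and 0 peaks. Its region upstream of the start site, chr2:13573435-13573938, was called in the 3 deeper libraries with summits 732, 696 and 639 bp upstream, folds of 6.73, 5.23 and 5.38 and percentiles of 90.1, 80.4 and 62.7. Cnn1, which encodes smooth muscle calponin, had a region about 3 kb upstream of its start site, chr9:22096022-22096456, in WT replicate 2 (fold 7.41, 19 reads at the summit, percentile 92.0) and in miR-187 replicate 2 (fold 5.65, 6 reads, percentile 62.9). Acta2, which encodes smooth muscle α-actin, had 1 peak, in miR-187 replicate 2 only (fold 5.92, 8 reads), 11.1 kb downstream of a start site, inside the gene and 3.9 kb from a boundary of Stambpl1. The shallowest library thus had peaks at 2 contractile genes, Acta2 and Cnn1, from 6 to 8 reads each.

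The remaining 11 genes with a peak (Col3a1, Col5a1, Col6a1, Lamb1, Fn1, Fbn1, Eln, Dcn, Snai2, Twist1 and Zeb2) held 18 peaks, with folds from 3.98 to 6.25 and percentiles from 5.77 to 80.8. Col5a1 had its peak in WT replicate 1 only. Col6a1 had 1 peak in WT replicate 2 and 1 in miR-187 replicate 1, and Lamb1 had 1 in WT replicate 1 and 2 in miR-187 replicate 1. The 10 genes without a peak in any library were Col5a2, Lama4, Nid1, Lum, Lox, Pdgfrb, Rgs5, Tcf21, Myh11 and Tagln, or 25% beside 41.5% of all genes.

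**Figure D4:**
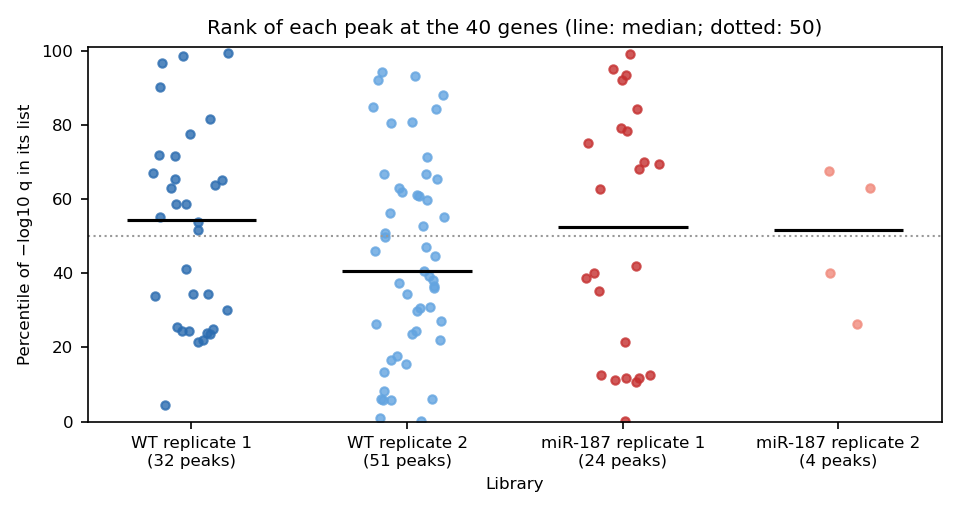
Each point is 1 peak in the windows of the 40 genes, with its percentile of −log10 q among all peaks of its own list on the vertical axis and the library on the horizontal axis. The black line is the median, which is 54.5, 40.7, 52.3 and 51.6 from left to right, and the 4 peaks of miR-187 replicate 2 lie between 26.4 and 67.5.

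In median fold the peaks at the 40 genes lay slightly below peaks at other genes in every library, a gap that was not tested. The median fold was 5.0, 4.64, 5.35 and 5.37 in library order, against 5.24, 5.03, 5.56 and 5.41 for peaks at other genes. Peaks at or above the 90th percentile of their list numbered 4 of 32, 3 of 51, 4 of 24 and 0 of 4. In WT replicate 1 they were those of Mmp2, Col18a1, Col15a1 and Vim, in WT replicate 2 those of Postn, Pdgfra and Cnn1, and in miR-187 replicate 1 those of Col15a1, Col4a2, Timp2 and Mmp2. Mmp2 and Col15a1 thus stood among the strongest peaks in 1 library of each group.

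Peaks were more often in WT only than in miR-187 only. Of the 40 genes, 7 had a peak in both WT libraries and neither miR-187 library (Col1a2, Col6a2, Col18a1, Hspg2, Postn, Mmp14 and Pdgfra), which is 17.5% beside 9.04% of all genes. None had the reverse, beside 0.169% of all genes. More peaks in both WT libraries than in either miR-187 library were found at 10 genes (the same 7 with Col15a1, Lamc1 and Tcf4), or 25% beside 11.6%, and the reverse at none, beside 0.174%. Of these 10 genes, 6 kept groups that did not overlap when only summits inside the gene counted. At a −log10 q of 5 or more 1 did (Col18a1), and with lists of equal length 0 did. The groups of Col18a1 overlapped with 50 kb flanks (1, 5, 2 and 0 peaks in library order), and those of Pdgfra with 2 kb flanks. Thinning could change the outcome only for the 3 with a miR-187 peak, Col15a1, Lamc1 and Tcf4, and the groups of all 3 then overlapped. A peak in all 4 libraries was found at Lamc1 and Timp2, or 5% beside 3.36%. WT replicate 2 was the deepest library and miR-187 replicate 2 the shallowest, and the part of depth in these counts was not separated from that of genotype.

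Sharing of regions between libraries at these genes was set beside that of all regions, with no test. The peaks of the 4 lists merged into 83 regions, of which 23 (27.7%) had a peak in at least 2 libraries and 4 (4.82%) in at least 3, against 32.4% and 12.3% of all 20919 regions. The 4 were those of Timp2, Col4a2, Mmp2 and Vim given above. Of 12 regions called in both WT libraries, 8 had no miR-187 peak (66.7%, beside 42.4% of 4253 such regions in all), and 4 were also called in miR-187 replicate 1. No region at the 40 genes was called in both miR-187 libraries and neither WT library, beside 0.158% of all regions. The WT libraries shared 12 regions, which is 37.5% of those of WT replicate 1 and 23.5% of those of WT replicate 2, against 45.2% and 34.8% over all regions. WT replicate 1 and miR-187 replicate 1, of similar depth, shared 7, which is 21.9% and 29.2% of theirs, against 30.8% and 38.9% over all regions. In all, 60 of the 83 regions were called in a single library, 31 of them in WT replicate 2. These 31 are 37.3% of the 83 regions, beside 29.1% of all regions called in WT replicate 2 alone.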

How the data were processed

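Each sample had 1 peak list of paired-end ATAC-seq, made by the authors per library. The submitters' processing notes name Bowtie2 2.2.6, SAMtools 1.10, deepTools 3.3.2, MACS2 2.2.7.1, HOMER 4.11, FastQC, ChIPseeker, DiffBind and the mm10 build, without roles. Duplicate and mitochondrial read handling and any control are not given in the sources used here. The deposited lists give a score per peak, a fold enrichment over local background (a ratio), −log10 p and −log10 q, all the authors' values, which were used only to rank, filter or describe peaks within a list.

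Groups came from the sample titles. The 40 genes, their role groups, the other lists and the motifs were chosen with earlier results of these data known. Gene boundaries and start sites came from RefSeq GRCm38.p6, the same assembly as mm10, and where no strand was listed only lower and upper boundaries are named. Only the placed chromosomes were kept, which removed 6 and 20 scaffold peaks from the WT lists and 6 and 0 from the miR-187 lists. Coordinates are 1-based. Depth was inferred by solving each peak for whole reads at the summit and a background, taking fold as (reads + 1)/(background + 1) and p as the upper Poisson tail. A solution within 0.0005 was found for at least 99.99% of the peaks of each list, against at most 0.268% with the tail that includes the observed count, and the lowest background over a 200 bp extension was taken as read density. The solver and the thinning were tested on simulated data, and the permutation test on a worked example. Overlapping peaks of different lists (1 bp or more) were joined into regions. Every gene is accounted for, and values per library are given for 19 genes with a peak in at least 3 libraries, in both libraries of 1 group only, at or above the 90th percentile, or in miR-187 replicate 2. Single genes named because their groups do not overlap all have the smallest p of the 2-sided exact permutation test by construction, so it supports nothing about them. Alternatives were a −log10 q of at least 5, an equal number of peaks per list, no flank, 2 and 50 kb flanks, any overlap of peak and window, the nearest gene only, thinning, other overlap rules, blocking on the replicate number and omission of 1 library at a time. Computation used scipy 1.17.1 and numpy 2.4.6 for tests, statsmodels 0.14.6 for intervals, pandas 2.3.3 for tables and matplotlib 3.10.9 for figures, under Python 3.11.15.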

Additional observations from a re-analysis of the deposited data

How the results depend on the processing

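Of 176 recomputed differences in group means (miR-187 minus WT, replicate block left out), 162 stayed negative, 10 became 0 and 4 turned positive. This tally includes signs fixed in advance. The groups of every result recomputed did not overlap to begin with, so leaving out 1 library could not turn a sign. Thinning could not turn it either for genes without a miR-187 peak. The tally is therefore no measure of stability. The number of the 40 genes with a peak (-12.5) became 0 when each list was limited to its 1483 strongest peaks, with 4 genes in every library. Under the same limit the number of peaks changed from -27.5 to 0.5 and their share of the list from -0.082 to 0.034 points. Basement membrane genes with a peak changed from -3.5 to 0.5, and genes outside the endothelial-shared set from -7.5 to 0. Lamc1 peaks changed from -3.5 to 0.5. With only peaks of −log10 q 5 or more, the number of peaks differed by -7 and genes outside the endothelial-shared set by -3. With 50 kb flanks the number of peaks differed by -45 and the share by -0.140 points, and after thinning the number of peaks by -4.64. The 23 regions shared by at least 2 libraries were 14 with a reciprocal overlap of 50% and from 7 (without WT replicate 2) to 21 (without miR-187 replicate 2) when 1 library was left out, which also leaves fewer lists to share. Without miR-187 replicate 2 the difference was -7 for genes with a peak, -17.5 for peaks and -1.5 for basement membrane genes. Without WT replicate 2 it was -18 for peaks, -0.044 points for their share and -4.5 for genes outside the endothelial-shared set. Without miR-187 replicate 1 it was -5.5 for basement membrane genes. A replicate block cannot change a difference in means in this balanced layout (-12.5 genes with a peak in both fits), and the smallest sign-flip p for a single gene is 0.5. Deviations of same-numbered libraries had a correlation of -0.025 over 20919 regions. Every region has a peak in at least 1 list by construction, so this value cannot decide whether such libraries vary together. The sample titles state no pairing, and the numbers are not taken as pairs. With 2 libraries a group and 6 to 14 reads at a median summit, depth limits every absence of a peak stated here.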
